A study of Mus musculus with 6 samples.

Results

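The superficial layers of the mouse cerebral cortex were examined at 3 ages in spatially barcoded capture spots. Upper cortical layer spots, selected on their own UMI counts, were the 8% of spots in each coronal section with the highest score for Lamp5, Cux2 and Kcnh5, among spots with at least 500 unique molecular identifiers (UMIs, one per captured probe molecule). The score was the mean of the 3 genes' CPM (UMIs of a gene scaled to a fixed total per spot) in a spot, each divided by the gene's mean over the section. In all, 1627 of 20336 spots were members. The 2 P21 sections held 288 and 265 of them, the 2 adult sections 233 and 261, and the 2 aged sections 294 and 286. The same counts chose the spots, so every difference in level between member spots and the rest of a section is given below as a description with no test. Only their age effects were compared by a test, and Lamp5, Cux2 and Kcnh5 were left out of all tests between ages.

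The sections came from untreated male C57BL/6J mice with no transgene, 2 animals at each age, each giving 1 formalin-fixed, paraffin-embedded coronal brain section. By the labels, P21 mice (postnatal day 21) were bred by the submitters from purchased parents, adult mice (12 to 15 weeks) were bought from that same vendor, and aged mice (28 months) came from the National Institute on Aging, whereas the methods of the study name a single vendor for all ages. Visium v1 slides carried the P21 and adult tissue, whereas the aged libraries were made on Visium v2 slides through the CytAssist instrument with a changed probe design. Age, slide version and probe design therefore cannot be told apart in aged versus adult and, if the labels hold, neither can age and animal source in either comparison. The labels give neither the level along the brain nor the cortical area of a section.

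Upper cortical layers hold excitatory neurons that mainly connect cortical areas with each other, within a hemisphere and across the corpus callosum, and their identity is tied to the transcription factors Cux1 and Cux2. Deep layers, marked by Tbr1 and Fezf2, send axons to the thalamus, brainstem and spinal cord. After weaning age, cortical axons continue to be myelinated, with the superficial layers myelinated last and most sparsely, and perineuronal nets mature around inhibitory interneurons.

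The member spots formed a band close to the surface of the cortex in every section, shown in the map of member and deep layer spots. Of the positions that touch a spot, a member had on average 3.81 and 2.85 that were members too at P21, 3.61 and 2.98 in adult, and 3.82 and 4.30 in aged, compared with 0.129 to 0.261 for other spots. Between 70.9% (adult section 2) and 88.5% (aged section 2) of members touched at least 2 other members. The remainder were scattered, some of them far from the cortex. The median distance of a member from the tissue edge was 4 spots in every section except aged section 1, where it was 3, against 7 to 9 for deep layer spots, which were the top 8% by the same score made from Tbr1, Fezf2 and Rprm, less the upper layer members (1540 spots). The band lay more laterally in the adult sections and more dorsally in the aged sections, and a patch of spots with a high deep layer score lay at the bottom of aged section 2.

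**Figure D1:**
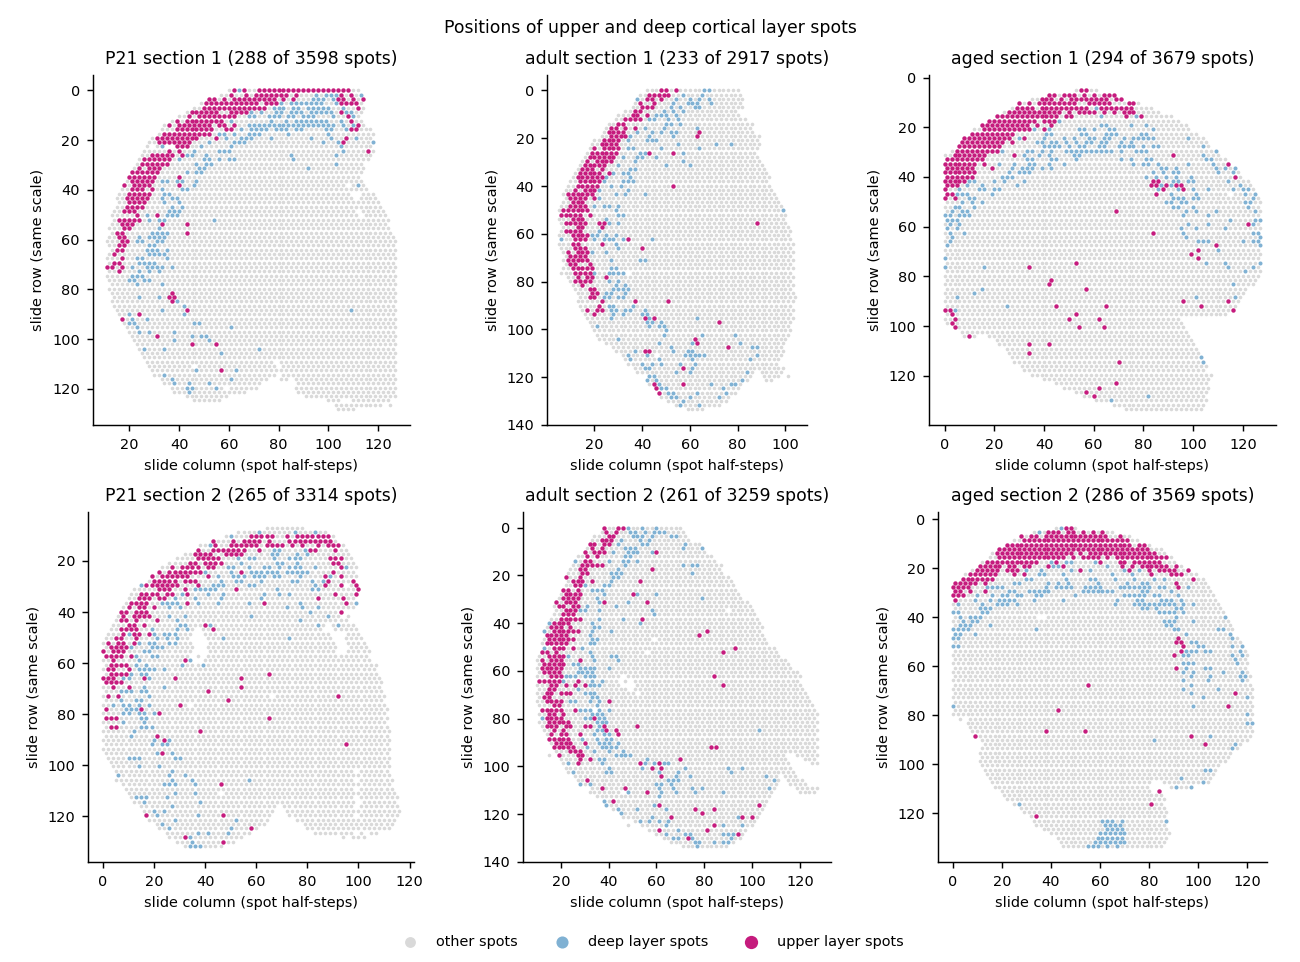
Position of the capture spots in each of the 6 sections (horizontal axis: slide column in half-steps between spots; vertical axis: slide row), with upper cortical layer spots, deep layer spots and all other spots in separate colours. The upper layer spots form a band near the outer border of each section, with 233 to 294 spots in a section.

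The lowest member scores and the highest scores outside were close to each other. The last spot inside scored 2.33 and the first outside 2.32 in P21 section 1, 2.42 and 2.41 in P21 section 2, 2.30 and 2.29 in adult section 1, 2.378 and 2.377 in adult section 2, 2.547 and 2.544 in aged section 1, and 2.69 and 2.68 in aged section 2. The median member score was 3.21 and 3.32 at P21, 3.07 and 3.20 in adult, and 3.56 and 4.04 in aged. Lamp5, which encodes a lysosome-associated membrane protein of upper layer neurons and of a class of interneurons, was at 549, 562, 711, 522, 431 and 543 CPM in the members (P21, adult and aged sections in order) against 105, 94.6, 156, 96.4, 55.4 and 61.0 CPM in the other spots. Kcnh5, a voltage-gated potassium channel, was at 288 to 365 CPM in members and 70.2 to 78.7 CPM elsewhere, and Cux2 at 138 to 188 CPM against 35.7 to 53.6 CPM.

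Depth differed between the sections. The members' UMIs summed to 7465479 and 2943797 at P21, 4230845 and 3624361 in adult, and 8790221 and 13267868 in aged, with a median of 26280.5, 10804, 17862, 14159, 30921 and 49701 UMIs per member spot. A member held 1.65 and 2.05 times the median UMIs of another spot in the aged sections, against 0.886 to 1.13 times at P21 and in adult. Aged sections shared no spot barcode with the other sections, whose slides share 1 set of barcodes. The log CPM of the members' sums correlated across genes at 0.989 to 0.991 between sections of 1 age and at 0.951 to 0.979 between ages. A spot is 55 µm wide and can hold several cells of different types, so fewer cells of a type and less RNA per cell cannot be told apart in any result below.

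The label was checked on layer genes that the score did not use. Of 16 upper layer genes at 10 CPM or more, 11 were higher in members than in the other spots of all 6 sections, with a median log2 ratio of 0.91, and 13 were higher than in the deep layer spots of all 6. Across all genes at that level, 2013 of 9936 were higher and 2864 were lower in all 6 sections. Rorb, the nuclear receptor of the granular layer, had a mean log2 ratio of 1.22 to other spots and 1.90 to deep layer spots, and Cux1 had 1.14 and 1.20. Rasgrf2, a guanine nucleotide exchange factor of superficial neurons, had 1.28 and 1.25. Of the list, Wfs1 and Plch1 were lower in members than in other spots in all 6 sections, with log2 ratios of -0.39 and -0.64, and Otof and Mdga1 were higher in 1 section. Of 9 deep layer genes, 7 were lower than in other spots in all 6 sections (median -0.86) and 9 were lower than in deep layer spots (median -1.55). All 16 oligodendrocyte and myelin genes were lower than in other spots in all 6 sections, with a median of -1.66. The spots thus bore the upper layer genes, with deep layer and myelin genes still present at lower levels.

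The genes other than the score genes that were most concentrated in member spots, ranked by the lowest of their 6 log2 ratios at 20 CPM or more in every section, were Adam33, Ddit4l, Pdzrn3, Exph5, Tmem215, Kcnh4, Stard8, Ovol2, Igfn1, Kcnh7 and Wnt10a. Adam33, a membrane-bound metalloprotease (GRCm38 chromosome 2, 131050591 to 131063814, minus strand), was at 22.2 and 20.4 CPM in members at P21, 53.4 and 24.8 in adult and 53.8 and 59.5 in aged. In the other spots it was at 3.03 and 3.01, 6.77 and 3.65, and 3.95 and 4.99 CPM, so members were higher in all 6 sections. Ddit4l, an inhibitor of mTOR signalling (chromosome 3, 137621612 to 137628333, plus strand), was at 63.2, 51.3, 89.1, 70.9, 56.2 and 72.5 CPM in the members of the 6 sections and at 8.04 to 18.2 CPM elsewhere. Pdzrn3, a ubiquitin ligase with PDZ domains (chromosome 6, 101149609 to 101377897, minus strand), was at 88.8, 93.1, 77.8, 65.1, 57.9 and 74.9 CPM in members and at 12.8 to 21.6 CPM elsewhere. Kcnh4 and Kcnh7, paralogues of the score gene Kcnh5 among the ether-a-go-go related potassium channels, were at 22.8 to 39.9 and 182 to 313 CPM in members against 6.71 to 12.2 and 59.3 to 108 CPM elsewhere. Wnt10a, a secreted Wnt ligand, was at 28.5 to 64.7 CPM in members and at 8.51 to 15.4 CPM elsewhere. None of these 11 genes was at 0 in the other spots of any section, so they were enriched in the members without being confined to them.

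**Figure D2:**
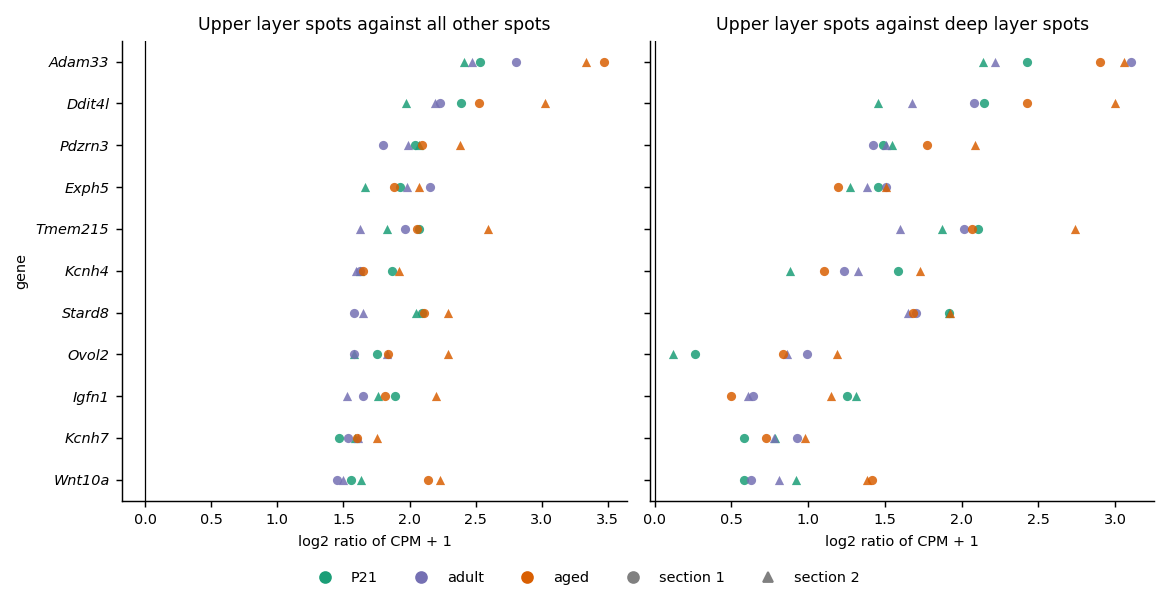
Log2 ratio of CPM plus 1 in upper cortical layer spots to that in all other spots (left) and in deep layer spots (right) for the 11 genes above, with 1 point per section, coloured by age and shaped by section number. All points lie above 0, from 1.45 to 3.47 against other spots and from 0.12 to 3.11 against deep layer spots.

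The P21 versus adult comparison addresses what changes in the superficial cortex between weaning age and adulthood. In the member spots, 14 of 16 myelin genes, 7 of 9 meningeal genes and all 3 erythrocyte genes tested were higher at P21, and 7 of 18 immediate early genes and 6 of 15 clock genes were lower. A gene was called when its Benjamini-Hochberg adjusted p from edgeR's quasi-likelihood test on the summed UMIs of each section (hereafter edgeR adjusted p) was under 0.05 and its fold change over 1.5. Of 10878 genes tested, 397 (3.65%) were called higher and 239 (2.2%) lower at P21, 5.85% in all, and without P21 section 1 the number called fell from 636 to 380. The median log2 fold change over all tested genes was -0.01. Changes below are log2(P21/adult) with the standard error, and levels are CPM scaled by trimmed mean of M values (TMM) factors in P21 sections 1 and 2 and adult sections 1 and 2.

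Of 16 oligodendrocyte and myelin genes tested in the member spots, 14 were called higher at P21 and none lower, with a median log2 fold change of 1.56 beside 1.44 in deep layer spots and 1.08 in all other spots. The list summed to 10718 and 13291 CPM at P21, 4513 and 4288 CPM in adult and 2661 and 2480 CPM in aged members. Mbp, the myelin basic protein, was at 3502 and 4585 CPM at P21 against 1687 and 1611 CPM in adult (1.29 ± 0.10, edgeR adjusted p = 3.33e-08). Mag, an adhesion protein of the inner myelin membrane, was at 381 and 443 against 144 and 126 CPM (1.60 ± 0.11, edgeR adjusted p = 4.97e-09). For both genes the P21 and adult sections did not overlap.

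Of 11 genes of oligodendrocyte precursors and newly formed oligodendrocytes, 6 were higher at P21 and none lower (median 0.84). Enpp6, a choline phosphodiesterase that marks newly formed oligodendrocytes, was at 19.5 and 33.7 CPM at P21 and at 7.60 and 6.58 CPM in adult (1.82 ± 0.27, edgeR adjusted p = 0.000174), with no overlap. Adamts4, a proteoglycan-cleaving protease of the same lineage, was at 20.005 and 26.5 against 6.89 and 9.60 CPM (1.46 ± 0.24, edgeR adjusted p = 0.000497).

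Genes of immature neurons and axon growth were mostly not called, 6 of 19 being higher at P21 and none lower (median 0.35). Marcksl1, an actin-binding substrate of protein kinase C in growing neurites (chromosome 4, 129513581 to 129515985, plus strand), was at 252 and 259 CPM at P21 and 41.6 and 52.4 CPM in adult. The P21 sections lay far above the adult ones, and Marcksl1 was higher by 2.45 ± 0.12 (edgeR adjusted p = 1.16e-10). Nrep, a regeneration-related protein of neurons, was at 428 and 436 against 251 and 187 CPM (0.98 ± 0.11, edgeR adjusted p = 7.31e-06). Tubb2a, a beta-tubulin, was at 862 and 883 against 479 and 536 CPM (0.78 ± 0.09, edgeR adjusted p = 5.96e-06). Met, the hepatocyte growth factor receptor of developing cortical projection neurons, was at 26.8 and 26.2 CPM at P21 and 8.79 and 10.97 CPM in adult (1.43 ± 0.21, edgeR adjusted p = 0.000161). None of these had overlapping P21 and adult values. Of 30 axon guidance and adhesion genes, 2 (Sema6a and Nrp1) were called higher and none lower, and Nrp1 was not called without P21 section 1 (1.24, edgeR adjusted p = 0.0603) or without adult section 1 (1.004, 0.084).

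The perineuronal net and proteoglycan genes were split, with 4 of 12 higher and 2 lower at P21. Ncan, the proteoglycan neurocan, was at 211 and 208 CPM at P21 and 116 and 102 CPM in adult (0.94 ± 0.10, edgeR adjusted p = 3.39e-06). Hapln4, a link protein that anchors proteoglycans to hyaluronan in mature nets, was at 117 and 109 CPM at P21 and 231 and 230 CPM in adult (-1.02 ± 0.10, edgeR adjusted p = 2.06e-06). The sections of each age did not overlap for either gene, and they moved in opposite directions.

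Calls in the synaptic and channel lists are given beside the 5.85% of all tested genes that were called at P21. Snap25, a core protein of the vesicle fusion machinery, was the 1 of 26 synaptic vesicle genes called, lower at P21 with 3714 and 3454 CPM against 6234 and 5415 CPM (-0.70 ± 0.09, edgeR adjusted p = 3.04e-05). Outside that list, Rims3, a regulator of vesicle release (chromosome 4, 120854816 to 120896579, plus strand), was at 138 and 130 CPM at P21 and 300 and 271 CPM in adult (-1.09 ± 0.10, edgeR adjusted p = 3.55e-07). Scn4b, an accessory sodium channel subunit, was at 42.8 and 39.1 against 112 and 79.5 CPM (-1.22 ± 0.14, edgeR adjusted p = 1.29e-05). P21 sections were below adult sections for each of these genes. None of 24 postsynaptic density genes and none of 15 GABA-A receptor genes was called, 1 of 19 NMDA and AMPA receptor genes was higher, and of 32 sodium and potassium channel genes 1 was higher and 2 were lower.

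Several activity-dependent and clock genes were lower at P21. Of 18 genes of the immediate early list, which neurons transcribe in response to firing, 7 were called lower and 2 (Egr4 and Nptx2) higher, with a median of -0.45. Egr4 was not called without P21 section 1 (0.67) or adult section 2 (0.58), nor Nptx2 without P21 section 1 (0.90), and the change of Nptx2 was 1.97 without adult section 1. Arc, a synaptic capsid-like protein (chromosome 15, 74669083 to 74672570, minus strand), was at 52.2 and 37.1 CPM at P21 and 177 and 93.8 CPM in adult (-1.56 ± 0.22, edgeR adjusted p = 7.68e-05). Dusp1, a phosphatase of mitogen-activated kinases, was at 13.5 and 14.3 against 38.2 and 30.4 CPM (-1.32 ± 0.17, edgeR adjusted p = 2.9e-05). The 2 ages did not overlap, but the 2 adult sections differed from each other in Arc by more than the P21 sections did. Egr1, a zinc finger transcription factor of the same response, was at 101 and 103 against 248 and 149 CPM (-0.96 ± 0.16, edgeR adjusted p = 0.000371), and without adult section 1 its change was -0.55, under the fold required. Of 15 clock genes 6 were lower and none higher (median -0.34). Bhlhe40, a transcriptional repressor of the clock, was at 123 and 120 against 216 and 254 CPM (-0.95 ± 0.10, edgeR adjusted p = 4.53e-06), and Nr1d1, the nuclear receptor REV-ERB alpha, at 97.6 and 91.8 against 199 and 174 CPM (-0.97 ± 0.11, edgeR adjusted p = 4.53e-06). The hour at which the mice were killed is not given in the sources used here.

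Single genes outside the lists also changed. Hsf4, a heat shock transcription factor (chromosome 8, 105269801 to 105275845, plus strand), was at 7.03 and 4.76 CPM at P21 and 31.8 and 30.2 CPM in adult (-2.30 ± 0.21, edgeR adjusted p = 3.55e-07). Rspo1, a secreted enhancer of Wnt signalling (chromosome 4, 124986430 to 125009099, plus strand), was at 15.3 and 14.3 against 58.9 and 33.4 CPM (-1.64 ± 0.21, edgeR adjusted p = 3.7e-05). It was at 8.45 to 9.49 CPM in the other spots of the adult sections and its P21 effect there was -0.06, a difference of -1.56 ± 0.21 (edgeR adjusted p = 7.77e-05). Il33, an alarmin cytokine of glial nuclei (chromosome 19, 29925114 to 29960718, plus strand), was at 16.6 and 12.2 against 48.9 and 47.7 CPM in members (-1.68 ± 0.16, edgeR adjusted p = 1.07e-06) but at 14.4 and 15.0 against 138 and 136 CPM in other spots. All of these genes had P21 sections below both adult sections.

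Genes of other compartments moved with P21. Of 9 meningeal fibroblast and smooth muscle genes tested, 7 were higher at P21 and none lower, with a median of 1.11 in members beside 0.61 in deep layer spots and 0.22 in other spots. The list of 15 summed to 256 and 274 CPM at P21, 143 and 157 CPM in adult and 248 and 164 CPM in aged members, with Igfbp2 the gene with most UMIs. Col1a1, the collagen of fibroblasts, was at 12.6 and 20.4 against 2.14 and 2.74 CPM (2.68 ± 0.37, edgeR adjusted p = 6.61e-05). All 3 erythrocyte genes tested were higher. The adult beta-globin Hbb-bs was at 1523 and 804 CPM at P21 against 99.1 and 112 CPM in adult (3.47 ± 0.24, edgeR adjusted p = 9.86e-09), and at 1538 and 912 against 220 and 109 CPM in other spots. Globin copies share sequence, so the division of UMIs between them is uncertain. Part of the membership lies near the pial surface, and the part of meninges and blood in the P21 results was not tested beyond leaving out members less than 3 spots from the edge, which left 607 called genes (370 higher, 237 lower), with 6 of 9 meningeal and 3 of 3 erythrocyte genes among the higher ones. The 6 erythrocyte genes in the files summed to 2265 and 1170 CPM at P21, 163 and 172 CPM in adult and 184 and 281 CPM in aged members. Choroid plexus genes, with most UMIs from Ttr, summed to 540, 685, 451, 292, 432 and 18.6 CPM in the 6 sections, and T and B cell genes to 3.56 to 5.04 CPM, with none of the latter passing the filter for testing. Homeostatic microglia genes (11 tested) and layer 1 genes (3 tested) had no call. Of 13 astrocyte, 7 reactive astrocyte, 10 reactive microglia and 14 endothelial and pericyte genes 1 each was higher, Aldh1l1, Fbln5, Cd9 and Cldn5 in that order. Leaving out 1 section ended the call of Aldh1l1 (0.56 without P21 section 1 and 0.46 without adult section 1), of Fbln5 (0.93 to 1.46 without any 1 of the P21 and adult sections) and of Cldn5 (0.58 without P21 section 2).

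**Figure D3:**
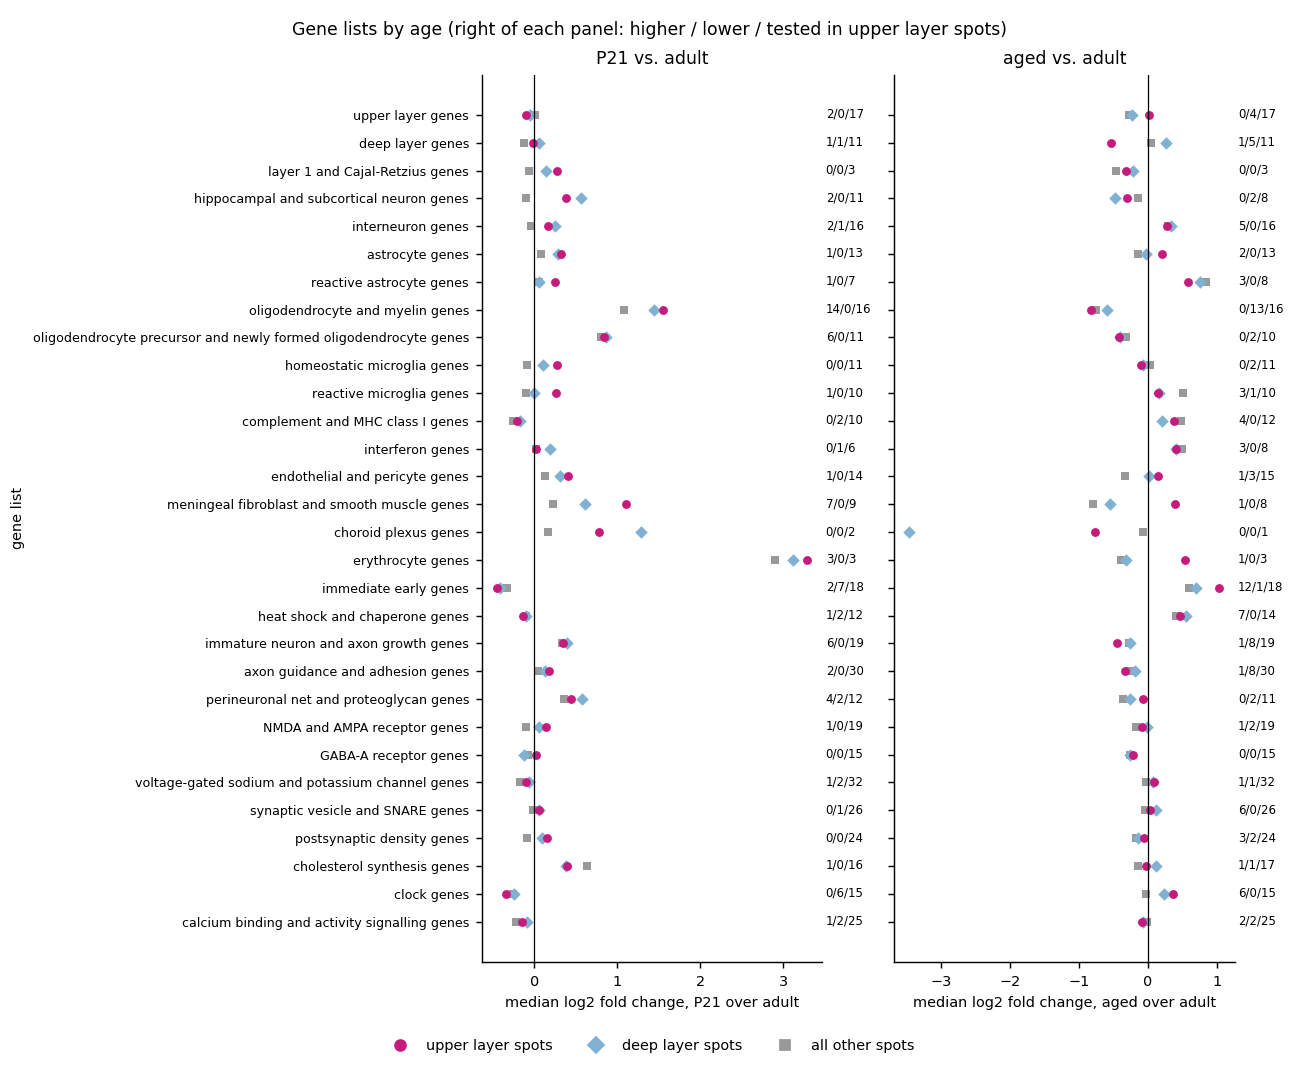
Median log2 fold change of each gene list at P21 (left) and in aged (right) relative to adult, in upper cortical layer spots (circles), deep layer spots (diamonds) and all other spots (squares), with the numbers called higher and lower and the number tested in the upper layer spots at the right. Myelin genes lie at 1.56 at P21 and -0.82 in aged, and immediate early genes at -0.45 and 1.03.

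The aged versus adult comparison addresses what changes in the superficial cortex in old age. In the member spots, 12 of 18 immediate early, 6 of 15 clock, 7 of 14 heat shock and 5 of 16 interneuron genes were higher in aged, and 13 of 16 myelin and 8 of 19 axon growth genes were lower. Of 11193 genes tested, 789 (7.05%) were called higher and 591 (5.28%) lower, 12.3% in all, and the median log2 fold change over all tested genes was 0.00. Values below are in adult sections 1 and 2 and aged sections 1 and 2. These genes were not read on the same slide version, and a factor shared by all spots of a section cancels only in the tests against other spots given further below.

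Of 18 immediate early genes tested, 12 were called higher in aged members and 1 (Nptx2, which was not called without adult section 1, at -0.54) lower, with a median log2 fold change of 1.03 beside 0.70 in deep layer spots and 0.59 in other spots. The 20 genes of the list summed to 1389 and 1041 CPM in adult and 3827 and 3327 CPM in aged members. Egr1 was at 248 and 149 CPM in adult and 1457 and 1267 CPM in aged members (2.77 ± 0.15, edgeR adjusted p = 4.08e-10). Arc was at 177 and 93.8 against 853 and 629 CPM (2.44 ± 0.19, edgeR adjusted p = 6.62e-08). Fos, a subunit of the transcription factor AP-1 (chromosome 12, 85473890 to 85477273, plus strand), was at 18.3 and 6.31 against 69.5 and 56.0 CPM (2.31 ± 0.24, edgeR adjusted p = 1.63e-06). Both aged sections lay above both adult sections in each gene, and adult section 1 was the higher adult section in all of them. Without adult section 1 the change of Fos was 3.30. Nr4a1, an orphan nuclear receptor of the same response (chromosome 15, 101254269 to 101274795, plus strand), was at 93.6 and 66.6 against 219 and 184 CPM (1.32 ± 0.13, edgeR adjusted p = 7.39e-07). Outside the list, Sik1, a salt-inducible kinase that restrains cyclic AMP signalling (chromosome 17, 31844250 to 31855804, minus strand), was at 8.55 and 6.58 against 64.7 and 53.2 CPM (2.94 ± 0.19, edgeR adjusted p = 5.12e-09), and the phosphatase Dusp4 at 12.8 and 9.87 against 62.1 and 50.2 CPM (2.29 ± 0.18, edgeR adjusted p = 6.62e-08).

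The promoters of immediate early genes are known for sites that bind the cyclic AMP responsive factor CREB. The 250 bases before the RefSeq transcription start (GRCm38.p6) are printed for Fos and Nr4a1, because both rose in the aged members, at chr12:85473640-85473889 and chr15:101266596-101266845, both plus strand, with every TGACG and CGTCA, the half-site read on either strand, in capitals.
Fos: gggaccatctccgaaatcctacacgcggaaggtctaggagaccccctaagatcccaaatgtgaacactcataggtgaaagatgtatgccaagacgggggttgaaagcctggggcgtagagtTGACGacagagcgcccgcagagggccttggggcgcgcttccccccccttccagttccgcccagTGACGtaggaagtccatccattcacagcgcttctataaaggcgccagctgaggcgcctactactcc
Nr4a1: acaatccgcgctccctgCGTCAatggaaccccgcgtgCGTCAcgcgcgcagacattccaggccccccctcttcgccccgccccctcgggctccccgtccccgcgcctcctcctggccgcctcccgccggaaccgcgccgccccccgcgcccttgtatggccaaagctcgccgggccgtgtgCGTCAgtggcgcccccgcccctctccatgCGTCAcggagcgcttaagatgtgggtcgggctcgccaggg
Fos held 2 half-sites, beginning 129 and 66 bases before the start, and Nr4a1 held 4, at 233, 213, 69 and 40 bases. Of the 20 immediate early genes, 15 had a window and 13 of these a half-site, including all 8 of the genes called higher in aged members that had a window. Btg2, Bdnf, Egr2, Homer1 and Npas4, which were not called in aged, also held a half-site. Of all 27025 genes with a window, 19.8% had a half-site. Of the 11 immediate early genes with a single window 9 had a half-site, while 17.5% of all 22862 genes with a single window and 17.8% of all 32851 windows had one. The motif was chosen after the values had been seen, and a match is a description of letters and not evidence of binding.

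Of 15 clock genes, 6 were called higher in aged members and none lower, with a median of 0.37 beside 0.23 in deep layer spots and -0.02 in other spots. Bhlhe40 (chromosome 6, 108660629 to 108666925, plus strand) was at 216 and 254 CPM in adult and 593 and 657 CPM in aged (1.41 ± 0.10, edgeR adjusted p = 1.12e-08). Per2, a core repressor of the clock (chromosome 1, 91415982 to 91459324, minus strand), was at 22.1 and 48.8 against 106 and 122 CPM (1.71 ± 0.20, edgeR adjusted p = 4.37e-06). Per1, which is both a clock and an immediate early gene, was at 96.7 and 73.5 against 189 and 180 CPM (1.11 ± 0.11, edgeR adjusted p = 1.4e-06). Aged values lay above adult values in each, and the 2 adult sections differed more than the 2 aged sections in Per2, whose change was 2.36 without adult section 2. Of 14 heat shock and chaperone genes 7 were higher and none lower (median 0.47). Dnajb5, a co-chaperone, was at 81.2 and 79.8 against 206 and 220 CPM (1.41 ± 0.10, edgeR adjusted p = 1.22e-08). Hspa1b, an inducible heat shock protein whose sequence is nearly that of Hspa1a, was at 17.3 and 27.4 against 75.2 and 42.6 CPM (1.39 ± 0.23, edgeR adjusted p = 0.000206), and the division of UMIs between the copies is uncertain.

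Myelin genes fell in the aged members. Of 16 tested, 13 were called lower and none higher, with a median of -0.82 beside -0.60 in deep layer spots and -0.76 in other spots. Mag was at 144 and 126 CPM in adult and 69.1 and 62.6 CPM in aged members (-1.04 ± 0.11, edgeR adjusted p = 1.69e-06). Opalin, a sialylated glycoprotein of oligodendrocytes (chromosome 19, 41061710 to 41077113, minus strand), was at 58.9 and 65.0 against 5.85 and 5.39 CPM (-3.47 ± 0.15, edgeR adjusted p = 1.26e-11), the largest fall among the 16. Aged and adult sections did not overlap in either gene. Opalin also fell from 191 and 174 to 22.4 and 28.1 CPM in other spots. The members of the aged sections touched on average more other members than those of the other ages, and among members touching at least 2 others Mag was at 133 and 92.7 CPM in adult and 54.99 and 60.8 CPM in aged. Of 10 genes of oligodendrocyte precursors and newly formed oligodendrocytes, 2 were lower and none higher (median -0.41).

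Of 19 immature neuron and axon growth genes, 8 were called lower in aged members and 1 (Cd24a) higher, with a median of -0.46. Nrep was at 251 and 187 CPM in adult and 105 and 109 CPM in aged (-1.04 ± 0.11, edgeR adjusted p = 2.36e-06). Marcksl1 was at 41.6 and 52.4 against 25.4 and 21.8 CPM (-0.996 ± 0.13, edgeR adjusted p = 2.28e-05), and Stmn2, a microtubule regulator of axons, at 921 and 985 against 521 and 534 CPM (-0.85 ± 0.08, edgeR adjusted p = 7.39e-07). Met was at 8.79 and 10.97 against 1.15 and 1.57 CPM (-2.80 ± 0.29, edgeR adjusted p = 1.9e-06). No aged section reached an adult value in these genes, all of which were also called higher at P21 except Stmn2, which was at 1176 and 1248 CPM at P21, above both adult sections but by less than the 1.5-fold that a call needs. Of 30 axon guidance and adhesion genes 8 were lower and 1 (Unc5a, which was not called without aged section 2, at 0.50) higher (median -0.34). Among those lower was Efnb3, a transmembrane ephrin, at 54.4 and 56.8 against 35.6 and 23.9 CPM (-0.92 ± 0.15, edgeR adjusted p = 0.000209).

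Genes of inhibitory interneurons were higher or not called. Of 16 tested, 5 were called higher in aged members (Npy, Vip, Gad1, Crhbp and Lhx6) and none lower, with a median of 0.28 beside 0.34 in deep layer spots and 0.29 in other spots. Lhx6 was not called without adult section 1 (0.71) or adult section 2 (0.54). Vip, the vasoactive intestinal peptide of a superficial interneuron class (chromosome 10, 5639218 to 5647617, plus strand), was at 85.3 and 71.6 CPM in adult and 177 and 163 CPM in aged (1.11 ± 0.11, edgeR adjusted p = 8.56e-07). Npy, neuropeptide Y (chromosome 6, 49822710 to 49829507, plus strand), was at 257 and 211 against 549 and 579 CPM (1.27 ± 0.11, edgeR adjusted p = 1.73e-07). Gad1, a synthetic enzyme of the transmitter GABA, was at 45.4 and 38.9 against 92.7 and 111 CPM (1.27 ± 0.13, edgeR adjusted p = 1.94e-06). The aged sections were above the adult sections in each, while P21 sections were at 392 and 315 CPM for Npy, between adult and aged. Of 26 synaptic vesicle and SNARE genes 6 were higher and none lower. Syt2, a fast calcium sensor of vesicle release (chromosome 1, 134646677 to 134762593, plus strand), was at 68.2 and 46.1 against 126 and 140 CPM (1.21 ± 0.14, edgeR adjusted p = 5.22e-06). Of 24 postsynaptic density genes 3 were higher and 2 lower, with the scaffold Shank1 at 120 and 113 against 316 and 270 CPM (1.33 ± 0.11, edgeR adjusted p = 7.11e-08). No GABA-A receptor gene (15 tested) was called, and 1 of 19 NMDA and AMPA receptor genes was higher and 2 lower.

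Upper layer genes as a list stayed near 0 in both comparisons (median log2 fold change 0.02 in aged and -0.10 at P21, 17 tested), beside -0.23 in deep layer spots and -0.28 in other spots in aged and -0.06 and 0.00 at P21. The rule took a fixed share of each section on Lamp5, Cux2 and Kcnh5. It thus partly sets the level of genes that go with these in members and in other spots. A median near 0 therefore does not show that the layer was unchanged. The aged effect differed from that in other spots for 10 of the 17, with a higher change in members for 5 and a lower one for 5, and for 5 of the 17 (1 higher, 4 lower) without members less than 3 spots from the edge. Across all genes tested, 9.66% differed so. At P21, Pou3f1 and Mdga1 were called higher and none lower, and Mdga1 was not called without P21 section 1 (0.79) or adult section 1 (0.72). In aged members 4 were lower and none higher, against 5.28% of all genes tested. Nectin3, a cell adhesion protein of synapses (chromosome 16, 46387706 to 46498525, minus strand), was at 102 and 95.2 CPM at P21, 89.6 and 84.4 in adult and 35.2 and 39.4 in aged members (-1.22 ± 0.11 in aged, edgeR adjusted p = 3.84e-07). Calb1, the calcium buffer calbindin (chromosome 4, 15881264 to 15908064, plus strand), was at 460 and 447, 392 and 365, and 224 and 208 CPM (-0.81 ± 0.09 in aged, edgeR adjusted p = 2.74e-06). In both genes the aged sections lay below all others. Calb1 fell less in other spots, from 208 and 213 to 180 and 183 CPM, a difference of -0.64 ± 0.07 (edgeR adjusted p = 4.05e-06). Mdga1 and Otof, the other genes called lower in aged, were among the list's genes that were not concentrated in the members, and the change of Otof ranged from -2.10 without aged section 1 to -0.78 without aged section 2.

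Several deep layer genes, which the members carried at lower levels than deep layer spots, fell in aged members. Of 11 tested, 5 (Sulf1, Hs3st4, Ccn2, Pcp4 and Crym) were called lower and 1 (Nr4a2) higher, and the median was -0.54 in members, 0.26 in deep layer spots and 0.04 in other spots. Leaving out 1 section ended the call of Hs3st4 (-0.58 without adult section 1), of Pcp4 (-0.58 without P21 section 1, -0.38 without adult section 2 and -0.33 without aged section 2) and of Crym (-0.73 without adult section 2 and -0.49 without aged section 2). Sulf1, an extracellular sulfatase (chromosome 1, 12692277 to 12861192, plus strand), was at 11.4 and 13.98 CPM in adult and 4.13 and 3.74 CPM in aged members (-1.69 ± 0.25, edgeR adjusted p = 7.17e-05), with no overlap. In deep layer spots it was at 27.8 and 40.8 against 32.5 and 43.9 CPM. The list's 14 genes summed to 691 and 815 CPM at P21, 521 and 645 in adult and 486 and 383 in aged members, and, over members touching at least 2 others, to 626 and 582, 415 and 374, and 312 and 312 CPM. These lower sums stood in the sections with the highest median member scores, and the part of member purity in them was not tested.

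Of 8 reactive astrocyte genes 3 (C4b, Gfap and Serpina3n) were higher in aged members, and the median was 0.58 beside 0.76 in deep layer spots and 0.84 in other spots. Gfap was not called without aged section 1 (0.42), nor Serpina3n without adult section 1 (0.61) or aged section 1 (0.71). The complement gene C4b was at 7.84 and 9.60 CPM in adult and 34.3 and 16.2 CPM in aged members (1.51 ± 0.30, edgeR adjusted p = 0.000968), and at 33.8 and 32.7 against 273 and 230 CPM in other spots, a difference in change of -1.48 ± 0.31 (edgeR adjusted p = 0.00362). Without aged section 1 the change of C4b within members was 0.91. Its near-identical copy C4a makes its UMIs uncertain. Of 12 complement and MHC class I genes 4 were higher, such as H2-D1, a class I antigen-presenting molecule, at 27.8 and 25.5 against 47.1 and 49.8 CPM (0.86 ± 0.14, edgeR adjusted p = 0.000136). Of 10 reactive microglia genes 3 were higher and 1 lower, and the median was 0.15 beside 0.16 in deep layer spots and 0.51 in other spots. Among those higher, the secreted phosphoprotein Spp1 was at 3.80 and 6.03 against 16.7 and 18.6 CPM (1.87 ± 0.25, edgeR adjusted p = 2.31e-05). Of 11 homeostatic microglia genes 2 were lower. Of 15 endothelial and pericyte genes 3 were lower and 1 higher, and the median was 0.15 beside 0.02 in deep layer spots and -0.34 in other spots. Among those lower, the tight junction protein Cldn5 was at 52.0 and 63.3 against 31.7 and 23.3 CPM (-1.08 ± 0.16, edgeR adjusted p = 7.17e-05). Of 13 astrocyte genes the growth factor receptor Fgfr3 (62.0 and 70.2 against 163 and 129 CPM) and the connexin Gjb6 (72.2 and 75.1 against 128 and 152 CPM) were higher. Of 8 interferon genes 3 were higher, against 7.05% of all genes tested, and none lower, with a median of 0.41 beside 0.40 in deep layer spots and 0.49 in other spots. They were Ifi27, an interferon-induced mitochondrial membrane protein (23.3 and 24.1 against 44.05 and 37.04 CPM), Irf9, the DNA-binding part of the type I interferon transcription complex (8.08 and 9.05 against 17.1 and 14.9 CPM), and Ifit3, of the interferon-induced tetratricopeptide family (4.28 and 4.94 against 7.80 and 8.08 CPM). Irf9 was not called without adult section 1 (0.81), and Ifit3 not without any 1 of the adult and aged sections (0.68 to 0.89) or with DESeq2 (0.79, adjusted p = 0.223). Adult and aged sections did not overlap in any gene of this paragraph given with values.

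Genes of other compartments were also followed in aged members. Of 8 meningeal fibroblast and smooth muscle genes tested, Igf2, a growth factor made in meninges and vessels, was called higher, at 7.84 and 9.87 CPM in adult and 27.5 and 13.6 CPM in aged (1.19 ± 0.29, edgeR adjusted p = 0.00454), with no overlap. The list median was 0.39 in members, -0.55 in deep layer spots and -0.80 in other spots. Without members less than 3 spots from the edge the change of Igf2 was 0.04 (edgeR adjusted p = 0.937; 0.05 and 0.898 with members chosen on Cux2 and Kcnh5 alone), none of 7 genes was called and the median was -0.19. Of 3 erythrocyte genes, Hbb-bt was called higher with all members and none without those near the edge. The median of these 3 genes was 0.54 in members, -0.31 in deep layer spots and -0.39 in other spots.

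In the remaining lists, 2 of 11 perineuronal net genes and 2 of 8 hippocampal and subcortical neuron genes (Fibcd1 and Pmch) were lower in aged, and none of 3 layer 1 genes and of 1 choroid plexus gene was called. One gene each way was called in aged among 32 sodium and potassium channel and 17 cholesterol synthesis genes, and 2 each way among 25 calcium signalling genes. At P21, 2 of 16 interneuron genes were higher and 1 lower, 1 of 12 heat shock genes was higher and 2 lower, 2 of 10 complement and MHC class I genes and 1 of 6 interferon genes were lower, 1 of 16 cholesterol synthesis genes was higher, 1 of 25 calcium signalling genes was higher and 2 lower, 1 of 11 deep layer genes went each way, 2 of 11 hippocampal and subcortical neuron genes (Fibcd1 and Pmch) were higher, and none of 2 choroid plexus genes was called. Pmch was not called lower in aged without adult section 2 (-0.29, edgeR adjusted p = 0.848) and was at -5.96 without aged section 1, its P21 change ranged from 1.63 without adult section 1 to 5.39 without adult section 2, and with DESeq2 or with members chosen on Cux2 and Kcnh5 alone it was called at neither age. Fibcd1 was not called at P21 without P21 section 1 (0.66), adult section 1 (0.71) or adult section 2 (0.74). In aged, Fibcd1 lost its call in 3 of 18 alternatives, over which its change ranged from -1.12 to -0.44.

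**Figure D4:**
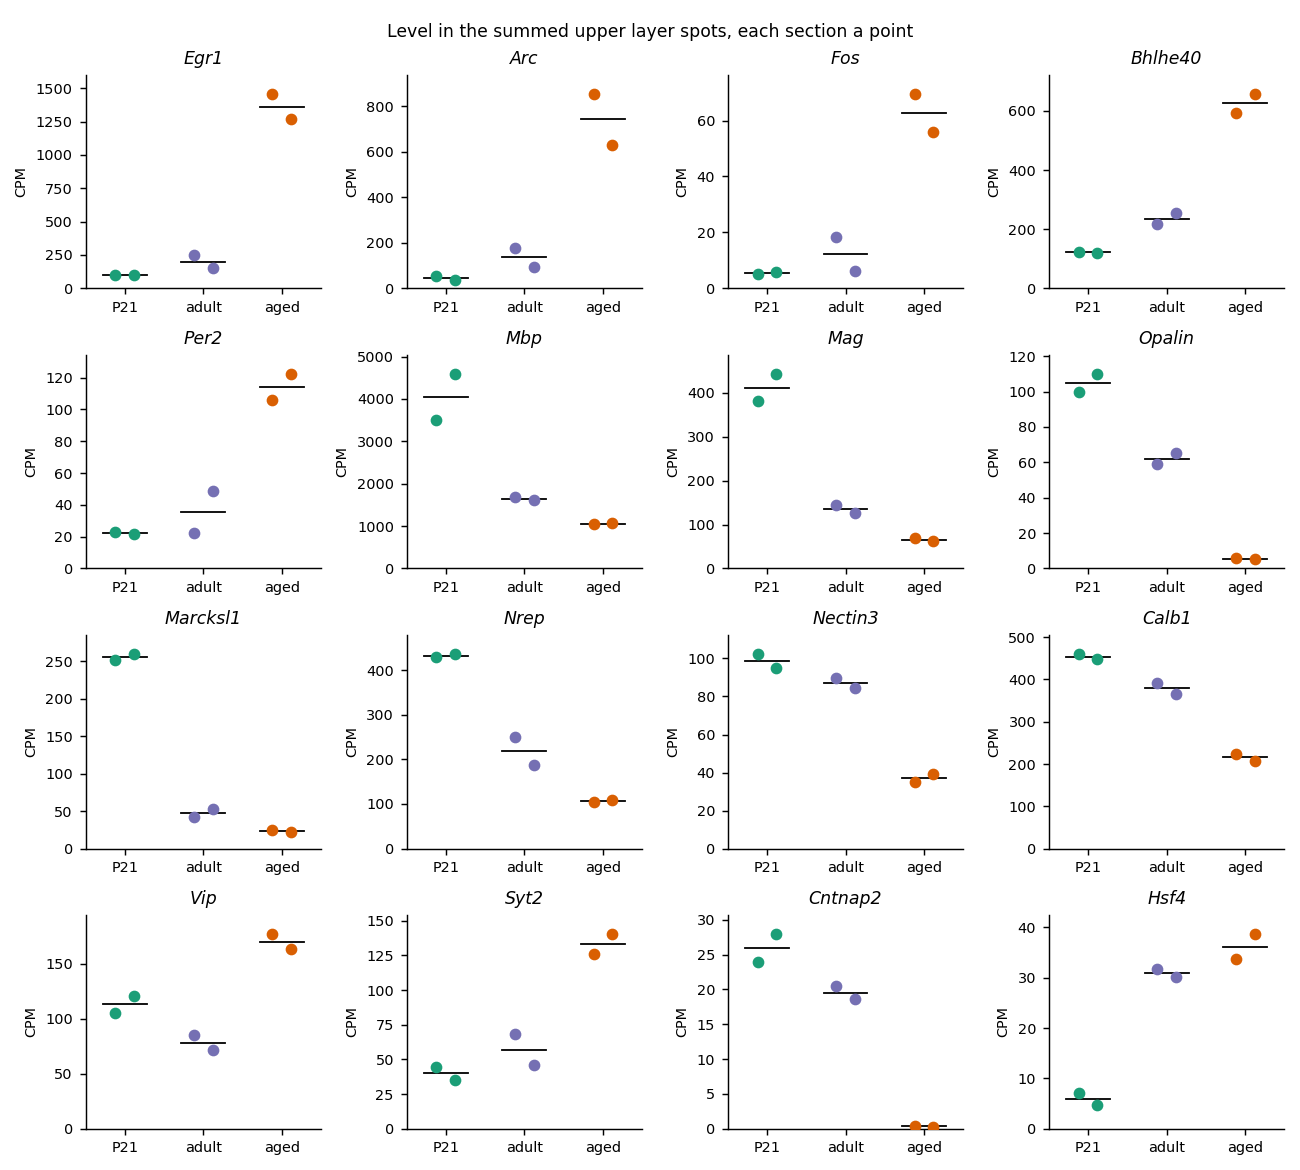
CPM (TMM-scaled) in upper cortical layer spots of 16 genes, with a point for each of the 2 sections per age and a bar at their mean. The aged sections stand highest for Egr1 (1457 and 1267) and lowest for Opalin (5.85 and 5.39), while Marcksl1 falls from 252 and 259 at P21 to 25.4 and 21.8 in aged.

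Some genes were called in both comparisons, which share the adult sections and are therefore not independent. Cdkn1a, the cell cycle inhibitor p21, was at 56.2 and 52.7 CPM at P21, 19.95 and 11.8 in adult and 45.8 and 32.4 in aged members (1.77 ± 0.21 and 1.27 ± 0.20, edgeR adjusted p = 1.21e-05 and 0.000157). Mfsd2a, a lipid transporter of brain endothelium, was at 19.6 and 16.3, 4.28 and 6.58, and 23.2 and 14.3 CPM (1.77 ± 0.30 and 1.78 ± 0.29, edgeR adjusted p = 0.000601 and 0.000151). Adult sections were lowest for both genes. Arc and Dusp1 rose in the order P21, adult and aged, and Opalin, Marcksl1 and Met fell in that order. Il33 was lower at both P21 and aged, where it was at 30.9 and 29.9 CPM (-0.67 ± 0.14, edgeR adjusted p = 0.00123).

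The age effect in upper layer spots was next set against that in deep layer spots of the same sections, which addresses whether a change was particular to the superficial layers. A region-by-age term was tested with section as a block, so a factor common to all spots of a section cancels. Of 11070 genes, 3 (0.0271%) had a P21 effect that differed, among them Marcksl1, whose rise was larger in upper layer spots by 0.72 ± 0.12 (edgeR adjusted p = 0.0442), and 6330403K07Rik, a gene of unassigned function, whose P21 effect was lower by -0.52 ± 0.08 (edgeR adjusted p = 0.0442). Neither call held without P21 section 1 (edgeR adjusted p = 0.483 for both), P21 section 2 (0.163 for both) or adult section 1 (0.921 for Marcksl1 with a difference of 0.48, and 0.608 for 6330403K07Rik), and that of 6330403K07Rik did not hold without adult section 2 (0.263). The number of such genes ranged from 0 (without P21 section 2 or adult section 1) to 36 (without either aged section).

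In aged versus adult, 155 of 11277 genes (1.37%) differed between upper and deep layer spots, 103 of them with a lower and 52 with a higher change in upper layer spots. The number was 37 without adult section 1, 34 without adult section 2 and 310 without aged section 1. Gnb4, a G protein beta subunit (chromosome 3, 32580332 to 32616585, minus strand), was at 40.1 and 64.4 CPM in adult and 13.99 and 11.4 CPM in aged upper layer spots, and at 95.02 and 122 against 121 and 88.2 CPM in deep layer spots. The adult and aged values overlapped in deep layer spots and not in upper layer spots, and the changes differed by -1.97 ± 0.14 (edgeR adjusted p = 1.42e-07). Among members touching at least 2 others, Gnb4 was at 31.6 and 29.5 CPM in adult and 11.4 and 10.1 CPM in aged. Ccn2, a matricellular protein that marks the deepest cortical layer (chromosome 10, 24595442 to 24598683, plus strand), was at 15.9 and 19.2 against 9.41 and 7.78 CPM in upper layer spots and at 52.9 and 89.7 against 132 and 141 CPM in deep layer spots, a difference of -2.03 ± 0.20 (edgeR adjusted p = 2.79e-05). Its fall within upper layer spots was -1.04 ± 0.20 (edgeR adjusted p = 0.000846), and -0.59 (0.0869) among members touching at least 2 others. B3gat2, a glucuronyltransferase, was at 12.8 and 21.7 against 11.8 and 5.16 CPM in upper and 27.6 and 45.4 against 76.6 and 44.7 CPM in deep layer spots, a difference of -1.81 ± 0.20 (edgeR adjusted p = 9.61e-05). Its call within upper layer spots (-1.07 ± 0.30, edgeR adjusted p = 0.012) did not hold without adult section 2 (-0.66, 0.198) or without aged section 2 (-0.52, 0.129), and the change was -1.72 without aged section 1. Gnb4, Ccn2 and B3gat2 were all higher in deep than in upper layer spots in every section. The section block does not remove a change in which spots were members. The band lay more laterally in adult and more dorsally in aged sections. Median member scores were 3.07 and 3.20 in adult and 3.56 and 4.04 in aged. The part of position and member purity in the differences from deep layer spots was not tested.

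Nefm, a neurofilament subunit of large axons (chromosome 14, 68082590 to 68124846, minus strand), moved the other way. It was at 352 and 277 CPM in adult and 511 and 582 CPM in aged upper layer spots, and at 275 and 211 against 255 and 277 CPM in deep layer spots. The aged sections stood above the adult ones in upper layer spots and overlapped with them in deep layer spots, a difference of 0.66 ± 0.08 (edgeR adjusted p = 0.000317). Syt2 and Vip also rose more in upper than in deep layer spots, by 0.97 ± 0.15 and 0.82 ± 0.18 (edgeR adjusted p = 0.00144 and 0.0214), as did Arc and Bhlhe40, by 0.63 ± 0.10 and 0.53 ± 0.10 (edgeR adjusted p = 0.00189 and 0.00541). These 4 differences were not called without adult section 1 for Syt2 (0.78, edgeR adjusted p = 0.2) and Bhlhe40 (0.43, 0.22), or without adult section 2 for Vip (0.45, 0.508) and Arc (0.59, 0.0636). Over 15 alternatives the call was lost in 1 for Syt2, 2 for Arc and 3 each for Vip and Bhlhe40. The difference of Bhlhe40 was 0.32 at its lowest. For Fos the difference was 0.22 ± 0.23 (edgeR adjusted p = 0.785).

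**Figure D5:**
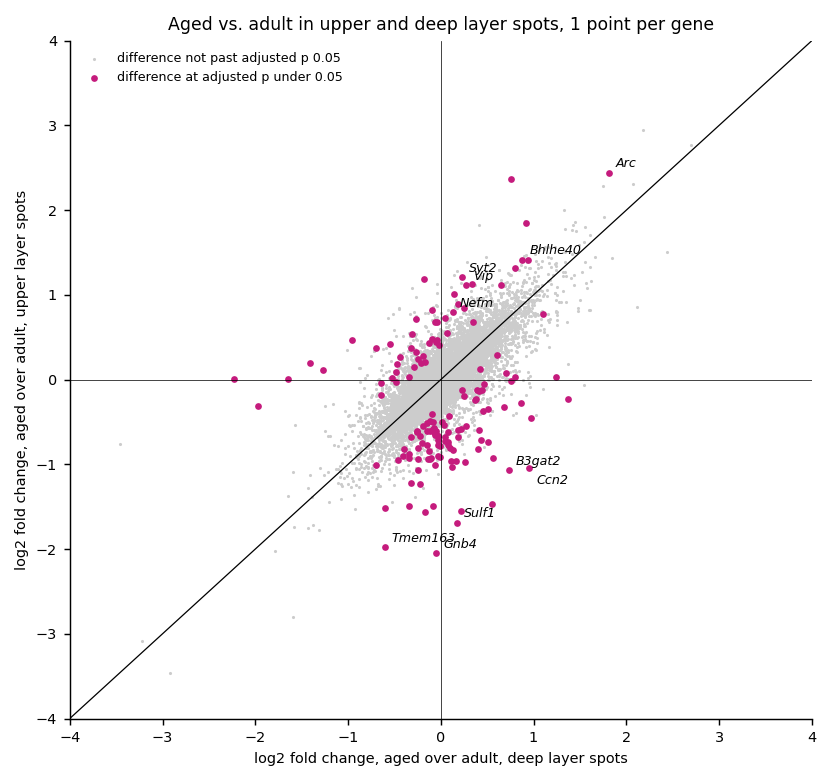
Log2 fold change of aged over adult in deep layer spots (horizontal) and in upper cortical layer spots (vertical) for 11155 genes tested in both, with the genes whose change differed between them marked (147 in the plot; 2 genes lie outside the axes). Gnb4 and Ccn2 lie below the diagonal, with differences of -1.97 and -2.03, and Syt2, Vip and Nefm above it, by 0.97, 0.82 and 0.66.

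Against all other spots, the P21 effect differed for 657 of 11202 genes (5.87%), and the aged effect for 1094 of 11322 genes (9.66%). The P21 number was 275 without P21 section 1, 308 without P21 section 2, 384 without adult section 1, 1033 without aged section 1 and 1079 without aged section 2, and the aged number was 647 without adult section 1 and 710 without aged section 2. With library sizes alone in place of TMM factors, the share of the aged differences that were higher in upper layer spots was 46.6% (418 higher, 479 lower) in place of 71.1% (778 higher, 316 lower). Resp18, a secretory granule protein (chromosome 1, 75272199 to 75278415, minus strand), was at 95.6 and 102 CPM at P21 and 157 and 164 CPM in adult upper layer spots but at 312 and 325 against 212 and 247 CPM in other spots. It was thus lower at P21 in members and higher in other spots, a difference of -1.19 ± 0.08 (edgeR adjusted p = 1.12e-08). Rims3 was at 158 and 168 against 191 and 192 CPM in other spots, a difference of -0.85 ± 0.08 (edgeR adjusted p = 7.65e-07). Il33 fell less at P21 in members than in other spots, by 1.55 ± 0.16 (edgeR adjusted p = 1.61e-06).

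In aged, Vip was at 36.8 and 33.8 against 35.3 and 35.1 CPM in other spots, and its rise was larger in members by 1.08 ± 0.09 (edgeR adjusted p = 1.64e-07). Syt2 was at 58.3 and 39.8 against 50.3 and 58.9 CPM in other spots, a difference of 1.03 ± 0.09 (edgeR adjusted p = 2.07e-07). Their aged and adult values overlapped in other spots and not in members. Arc rose from 127 and 71.8 to 291 and 231 CPM in other spots, less than in members by 1.02 ± 0.08 (edgeR adjusted p = 3.78e-08), and Bhlhe40 from 178 and 197 to 241 and 242 CPM, less by 1.02 ± 0.07 (edgeR adjusted p = 2.41e-09). The median number of UMIs per member relative to other spots was higher in the aged than in the other sections. The part of this depth ratio was not tested. With each sum thinned to the lowest total, these 4 differences kept their direction and stayed under the threshold. Thinning evened the totals of the sums and left the depth of single spots as it was, so it cannot test that ratio. Cntnap2, a neurexin-related adhesion protein (chromosome 6, 45059357 to 47304213, plus strand), was the gene with the largest fall in aged members, from 20.4 and 18.6 to 0.459 and 0.299 CPM. It also fell in deep layer spots and in all other spots, where it was at 0.636 and 0.442 CPM. Its differences of -0.29 ± 0.62 and -0.30 ± 0.51 did not pass the test (edgeR adjusted p = 0.924 and 0.77), which does not show that the falls were equal. For these falls, age and the changed probe design of the aged libraries cannot be told apart.

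Meningeal genes moved with the differences from other spots at both ages, and with those from deep layer spots in aged. Erythrocyte genes did so in aged, and at P21 only against other spots without members near the edge. At P21, 5 of 10 meningeal fibroblast and smooth muscle genes (Acta2, Igf2, Igfbp2, Islr and Tagln) differed from all other spots, each with a higher change in members, beside 5.87% of all genes, and the median difference of the 10 was 1.09. Without members less than 3 spots from the edge these 5 still differed, the median was 1.27, and 2 of 3 erythrocyte genes (Hba-a2 and Hbb-bs) differed, of which none did with all members. Against deep layer spots, none of 9 meningeal and 3 erythrocyte genes differed at P21 in either setting. In aged, of 8 meningeal fibroblast and smooth muscle genes tested against deep layer spots, 5 (Acta2, Igf2, Igfbp2, Mgp and Tagln) differed, each with a higher change in upper layer spots, beside 1.37% of all genes either way. Against all other spots, 8 of 9 differed, again with higher changes in members, beside 9.66%. Igfbp2 held most UMIs of the list, whose 15 genes summed to 370 and 276 CPM in adult and 215 and 194 CPM in aged other spots, and to 143 and 157 CPM in adult and 248 and 164 CPM in aged members. Without members less than 3 spots from the edge, the numbers fell to 1 of 8 (Igfbp2) and 2 of 9 (Igfbp2 and Islr). Of 3 erythrocyte genes, Hba-a2 and Hbb-bs differed from deep layer spots and from other spots, with higher changes in upper layer spots, and both also did without the members near the edge. Over all genes, 175 aged effects differed from deep layer spots and 771 from other spots without those members, in place of 155 and 1094. The differences of Gnb4, Ccn2, B3gat2, Nefm, Syt2, Vip, Arc and Bhlhe40 from deep layer spots kept their direction and call without them. The part of meninges and blood in these numbers was not tested beyond that.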

How the data were processed

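RNA was measured with whole-transcriptome probes in 6 coronal mouse brain sections on Visium slides. Per the file headers, the authors counted UMIs per gene and spot with Space Ranger 2.0.0 (P21 and adult) or 3.1.1 (aged), while the submitters' processing notes name Space Ranger 2.1.0, Seurat 5.1.0 and mm10. The deposited counts (19465 genes) were used as they are, and 11 symbols are listed more than once. Deposited tables of spatial enrichment statistics were not used. Spot positions came from the deposited tissue position tables.

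Members were chosen as the report describes, and their UMIs were summed per section, because sections and not spots are the replicates. The members and the 31 gene lists were chosen with earlier results of these data known. edgeR 4.0.16 in R 4.3.3 (TMM, quasi-likelihood fit and test, age as the only term, all 6 sums) gave fold changes and Benjamini-Hochberg adjusted p-values. Standard errors were the fold change over the square root of F. Genes had to pass filterByExpr, be detected in over 10% of member spots at either age and in at least 10% of all spots. Calls needed a fold change over 1.5 besides an adjusted p under 0.05. Where called genes are said not to overlap between ages, this describes the values of 2 sections per age and adds no test. The region-by-age tests used 12 sums with section as a block and the adjusted p alone. The fit was tested on simulated data first.

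Named genes were the 8 largest rises and falls at 10 CPM or more, the 5 called genes with the highest CPM each way, the 5 smallest p of each region-by-age test, up to 4 called genes of each list, the upper layer list, and the genes called in both comparisons with the largest changes. Not all of these are printed, and genes given only to spell out a list's count of 5 or fewer, or with a difference that the rule does not reach, were chosen after their values were seen. Gene positions are those of GENCODE vM21 (GRCm38), in which 203 of 204 genes looked up were found. Values of 2 genes are not reported here. Promoter windows came from RefSeq (GRCm38.p6). Depth was 2943797 to 13267868 UMIs per sum. Alternatives were other scalings, filters, tests, member rules, depths and left-out sections, and DESeq2 1.42.0.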

Additional observations from a re-analysis of the deposited data

Results flagged for a closer look

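The values here are differences in the age effect between upper cortical layer spots and other spots of the same sections, each from the region-by-age term of edgeR's quasi-likelihood test, with no explanation weighed. Against deep layer spots, the P21 effect differed for 3 genes, among them 6330403K07Rik (-0.52) and Marcksl1 (0.72). The aged effect differed for 155 genes, among them Gnb4 (-1.97), Ccn2 (-2.03), B3gat2 (-1.81), Synpr, a synaptic vesicle protein (-0.76), Nefm (0.66), Syt2 (0.97), Vip (0.82), Arc (0.63) and Bhlhe40 (0.53).

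Against all other spots, the P21 effect differed for 657 genes, among them Resp18 (-1.19), 6330403K07Rik (-0.95), Rims3 (-0.85), Il33 (1.55) and Rspo1 (-1.56). Tshz2, a zinc finger transcription factor of projection neurons, was at 79.9 and 112 CPM at P21 and 28.5 and 29.9 CPM in adult members, and its P21 effect differed from that in other spots by 1.68. With members chosen on Cux2 and Kcnh5 alone that difference was 0.36 (edgeR adjusted p = 0.342).

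The aged effect differed from that in other spots for 1094 genes, among them Bhlhe40 (1.02), Arc (1.02), Vip (1.08), Syt2 (1.03), Calb1 (-0.64) and C4b (-1.48). Pmch, the precursor of melanin-concentrating hormone and a marker of the lateral hypothalamus, was at 2.85 and 38.9 CPM in adult and 5.28 and 0.299 CPM in aged members, and at 30.9 and 438 against 545 and 4.44 CPM in other spots. Its difference was -3.12, but -0.42 (edgeR adjusted p = 0.745) without aged section 1, and its fall within members was -3.09 but -0.29 (edgeR adjusted p = 0.848) without adult section 2. Sections of 1 age differed in this gene as widely as the ages did.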

How the results depend on the processing

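At P21, the number of called genes was 97 (68 higher, 29 lower) with a test against a fold of 1.5, 418 (258 and 160) with DESeq2 and 380 to 727 with 1 section left out, against 636. In aged, the number was 179 (114 and 65) with a test against a fold of 1.5 and 1126 to 1565 with 1 section left out, against 1380. P21 effects that differed from deep layer spots numbered 0 with library sizes alone, 44 with no filter, 17 after thinning, 66 with the top 4%, 0 with the top 12%, 0 with Cux2 and Kcnh5 alone, 51 in members touching at least 2 others, 11 at 3 or more spots from the edge, 14 with Tbr1 and Rprm alone and 0 to 36 with 1 section left out. Aged effects that differed from deep layer spots numbered 319 with no filter, 78 with Cux2 and Kcnh5 alone and 34 to 310 with 1 section left out. Against all other spots, the P21 number was 255 with Cux2 and Kcnh5 alone and 275 to 1079 with 1 section left out, and the aged number 617 after thinning, 431 with Cux2 and Kcnh5 alone and 647 to 1596 with 1 section left out. The cause of these shifts was not tested. The 132 gene results given with a value kept direction and call in 2106 of 2279 recomputed values, and 171 kept the direction but lost the call, 42 of them in the test against a fold of 1.5. Reversed were the aged change of Pcp4 (0.0759 with Cux2 and Kcnh5 alone) and the aged difference of Cntnap2 from deep layer spots (0.119 with Tbr1 and Rprm alone), neither called there. With the replicate number as a block, 589 genes (369 higher, 220 lower) were called at P21 and 1336 (763 and 573) in aged. Sections with the same number did not deviate together (correlations of 0.0888, -0.104 and -0.117 between ages), so the numbers were taken as names. With the aged numbers crossed, 1428 genes (812 and 616) were called. Crossing, the edge, the Tbr1 and Rprm score and the fit without aged sections were chosen after seeing the data. The shallowest sum was that of P21 section 2, and thinning each sum to that total left 587 genes called at P21 (372 higher, 215 lower). What this depth means for low genes at P21 was not tested.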
